A study of Mus musculus with 22 samples.

Results

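The genes described here are those of MHC class II antigen presentation: H2-Aa, H2-Ab1, H2-Eb1, Cd74, H2-DMa, H2-DMb1 and Ciita. They were taken by their symbol from a table of 55573 genes, and all 7 were found once and passed the filter on low counts, a mean of at least 10 counts over the samples. Liver mRNA was sequenced from 22 C57BL/6 mice, 1 library per mouse, to ask how a fibrosis-inducing diet changes liver gene expression with and without folliculin (FLCN). Cre mice, the controls, carried wild-type Flcn and 1 Albumin-Cre transgene. Liver-Flcn-/- mice, labelled FLCN KO, carried the same transgene and floxed Flcn on both alleles, so that the Albumin promoter deletes Flcn in hepatocytes and not in the immune cells of the liver. From 6 weeks of age mice ate chow or a diet without methionine and choline (MCD) for 6 weeks and were 3 months old at the end. The chow groups held 6 Cre mice and 5 liver-Flcn-/- mice, and the MCD groups 5 and 6. The libraries held 13751347 to 21144388 counted reads.

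MHC class II molecules are pairs of an α and a β chain that carry peptides of taken-up proteins to the surface of antigen-presenting cells, where CD4+ T cells read them. H2-Aa and H2-Ab1 encode the α and β chain of H2-A, and H2-Eb1 the β chain of H2-E. Cd74 encodes the invariant chain, which fills the groove of new class II molecules and guides them to the endosome, and H2-DMa and H2-DMb1 encode the H2-DM dimer, which removes its last fragment and lets peptides in. Ciita encodes the coactivator that turns these genes on. In liver, dendritic cells, B cells and macrophages, Kupffer cells among them, are the usual sources of class II, so the level in a whole-liver library depends on how many such cells it holds and on how much RNA each makes, and these cannot be told apart here.

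Ciita does not bind DNA itself but sits on proteins bound to the X and Y boxes just before class II genes. Promoter windows from 250 bases before to 50 after the start were searched for the letters CTNGNAAC of the X box core and ATTGG of the Y box core (NF-Y), on both strands. Cd74 was not among the 6 genes searched. The RefSeq table on GRCm38.p6 held 5 windows, of H2-Aa, H2-Eb1, H2-DMb1 and H2-DMa, and none of H2-Ab1 or Ciita. An X core followed by a Y core within 40 bases lay in the windows of 3 of these 4 genes and in 0.365% of the 32851 windows of all genes, where an X core alone lay in 13.2% and a Y core alone in 37.4%. These 3 stretches are shown because they hold the same pair of letter matches before genes that are measured below. Each is written 5′ to 3′ in the direction of its gene, with the X core first and the Y core second in capitals, 28 bases apart in H2-DMb1 and H2-Aa and 27 in H2-Eb1. They lie at chr17:34153074-34153154 on the plus strand (H2-DMb1), chr17:34287847-34287927 on the minus strand (H2-Aa) and chr17:34305753-34305832 on the plus strand (H2-Eb1). The stretches lie before the RefSeq starts. For H2-DMb1 the GENCODE span given below begins further upstream and takes in the stretch.
H2-DMb1: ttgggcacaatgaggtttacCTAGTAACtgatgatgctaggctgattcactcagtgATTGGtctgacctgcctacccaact
H2-Aa: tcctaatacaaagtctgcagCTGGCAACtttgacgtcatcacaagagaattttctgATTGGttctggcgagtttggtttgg
H2-Eb1: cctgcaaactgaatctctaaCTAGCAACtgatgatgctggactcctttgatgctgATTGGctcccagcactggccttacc

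The 2 windows of H2-DMa held no such pair, only a Y core that began 198 bases before 1 of its starts. The letters CACGTG, an E-box read by TFE3 and TFEB, which FLCN holds in the cytoplasm, were in none of the 5 windows and in 7.15% of all windows. A match of letters is a description of the sequence and not a bound site.

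The Flcn locus itself was read first as a check of the labels. Flcn had 31.7 ± 4.91 CPM (SD, n = 6) in Cre and 20.4 ± 2.78 (n = 5) in liver-Flcn-/- mice on chow, a log2 fold change of -0.63 ± 0.17 (SE, adjusted p = 0.0249 in edgeR's quasi-likelihood test), and the groups did not overlap, with 26.1 as the lowest Cre and 24.2 as the highest liver-Flcn-/- value. On MCD it had 29.2 ± 8.42 CPM (n = 5) in Cre and 26.0 ± 5.13 (n = 6) in liver-Flcn-/- mice, log2 -0.16 ± 0.17 (adjusted p = 0.567), and the groups overlapped. Cre removes an internal exon, so reads on the rest of the transcript, and reads from cells other than hepatocytes, are still counted, and on MCD the count of this gene does not check the labels. CPM is the normalised read count throughout, scaled to library size with TMM factors.

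All 5 class II genes of the MHC lie on chromosome 17, H2-DMa at 34119541 to 34139101, H2-DMb1 at 34153072 to 34160230, H2-Ab1 at 34257689 to 34269419, H2-Aa at 34282744 to 34287823 and H2-Eb1 at 34305867 to 34316674 (GRCm38). Ciita lies on chromosome 16 at 10480059 to 10528418. Per kilobase of exon, Cd74 was the most abundant of the 7, with 76.1 ± 21.3 CPM per kb over all libraries (SD, n = 22). H2-Eb1 followed with 21.1 ± 7.6, H2-Ab1 with 13.8 ± 4.61 and H2-Aa with 12.0 ± 4.03, and each of these 3 differed from its neighbour by less than the larger SD of the pair. H2-DMb1 had 1.79 ± 0.887 and H2-DMa 1.45 ± 0.432, which again differed by less than 1 SD. Ciita came last with 0.256 ± 0.134.

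In Cre mice on MCD, H2-DMb1 rose and the other 6 genes had higher means that did not pass the test. The values of H2-DMb1 in the 5 Cre livers on MCD were 3.58, 4.78, 5.17, 5.44 and 6.5 CPM. On chow the 6 Cre livers ran from 1.69 to 5.37 with a median of 2.05. Only the highest chow liver, Cre chow mouse 3 with 5.37 CPM, reached into the MCD range, and the second highest had 2.91. H2-DMb1 was 1.9-fold higher on MCD (log2 0.93 ± 0.27 SE, adjusted p = 0.00625, and exact permutation p = 0.0173, two-sided). Of the 14062 genes tested, 29.3% rose and 28.2% fell in this comparison, so 1 riser of 7 was no larger a share than that of all genes.

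Ciita, the coactivator, had 1.38, 1.47, 4.08, 5.34 and 5.43 CPM in the Cre livers on MCD, and 0.884 to 3.21 with a median of 2.12 on chow. The MCD livers thus fell into 2 low and 3 high ones, and the groups overlapped (log2 0.84 ± 0.38, adjusted p = 0.0665). H2-Eb1 differed by log2 0.54 ± 0.30 (adjusted p = 0.127). H2-Aa, H2-Ab1, Cd74 and H2-DMa differed by log2 0.33 to 0.37, with adjusted p from 0.207 to 0.272. The median of the 7 log2 fold changes was 0.37, against 0.01 over all genes tested. The count of risers was 0 without the 5 chow libraries described below, 6 without Cre chow mouse 3, and 2 without Cre MCD mouse 2 or mouse 5.

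**Figure D1:**
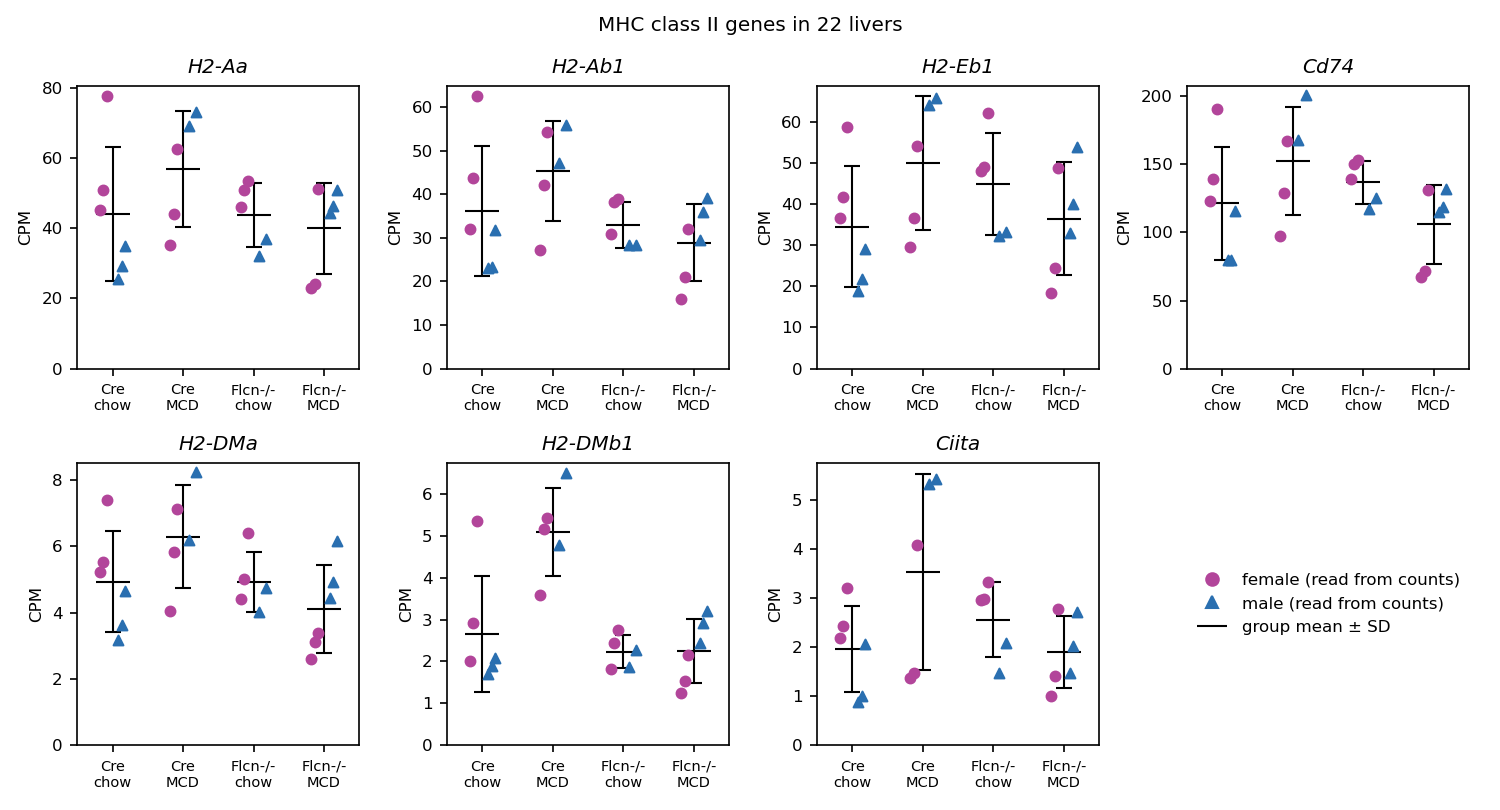
CPM of the 7 class II genes (vertical axes, linear from 0) in each of 22 livers, by group along the horizontal axis, with circles for females, triangles for males and black bars for the group mean ± SD. H2-DMb1 is the gene whose Cre livers on MCD, 3.58 CPM and above, all lie over the liver-Flcn-/- livers on MCD, and on chow the male livers lie low in most panels.

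In liver-Flcn-/- mice no class II gene passed the test on MCD. The log2 fold changes ran from -0.44 for Ciita to 0.01 for H2-DMb1, the median was -0.26 against 0.00 over all genes, and adjusted p ran from 0.189 to 0.977. None of the 7 had an unadjusted p under 0.05, and DESeq2 and limma-voom called none either, while 22.5% of all genes rose and 22.5% fell. H2-DMb1 had 1.82, 1.87, 2.28, 2.44 and 2.75 CPM on chow and 1.24 to 3.2 with a median of 2.3 on MCD, so that the chow values lay inside the range on MCD. Cd74 had 117, 125, 139, 150 and 153 CPM on chow and 67.2 to 132 with a median of 117 on MCD. The low end of the MCD range came from 2 mice, liver-Flcn-/- MCD mouse 3 and mouse 6, which between them had the lowest value of all 22 livers for every member but Ciita.

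On chow none of the 7 genes passed the test between the genotypes. The log2 fold changes, liver-Flcn-/- over Cre, ran from -0.26 for H2-DMb1 to 0.38 for H2-Eb1 and Ciita, with adjusted p from 0.469 to 1.0 and none at an unadjusted p under 0.05, and DESeq2 and limma-voom called none. Of all genes tested, 5.52% passed as higher and 3.1% as lower without Flcn. The standard errors were 0.22 to 0.39.

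On MCD the genotypes differed in H2-DMb1, which was lower in liver-Flcn-/- livers. Its 6 values there ran from 1.24 to 3.2 CPM, below the lowest of the 5 Cre values, 3.58. The mean was 2.25 ± 0.767 (SD) against 5.09 ± 1.06 CPM, a level 0.443 times that of Cre mice (log2 -1.17 ± 0.27, adjusted p = 0.00488). The exact permutation p was 0.00433, the smallest that 6 against 5 livers allow. Such a full separation was found for 1 of the 7 genes and for 3.53% of all genes tested. Over all genes 8.06% were called higher and 8.53% lower in liver-Flcn-/- livers.

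The other 6 genes had lower means in liver-Flcn-/- livers on MCD, and none of them passed. H2-DMa, the partner chain, had 4.05, 5.84, 6.19, 7.12 and 8.25 CPM in Cre livers and 2.59 to 6.16 with a median of 3.9 in liver-Flcn-/- livers (log2 -0.62 ± 0.23, adjusted p = 0.0689). H2-Ab1 had 27.2, 42.1, 47.2, 54.2 and 55.9 CPM against 15.9 to 39.1 with a median of 30.8 (log2 -0.65 ± 0.25, adjusted p = 0.0797). For H2-DMa 2 Cre livers, mouse 2 and mouse 5, lay inside the liver-Flcn-/- range, and for H2-Ab1 1 did, mouse 2. Ciita differed by log2 -0.89 ± 0.38 (adjusted p = 0.111), Cd74 by -0.52 ± 0.22 (0.117), H2-Aa by -0.50 ± 0.27 (0.22) and H2-Eb1 by -0.46 ± 0.30 (0.323). The median log2 fold change was -0.62 against -0.01 over all genes. At an unadjusted p under 0.05 there were 5 of the 7, a threshold at which the share of all genes was not counted. The count of genes called lower was 3 with DESeq2, 4 without Cre MCD mouse 2, and 2 without Cre chow mouse 3, Cre MCD mouse 5 or liver-Flcn-/- MCD mouse 1. This comparison and the MCD response of Cre mice share the same 5 Cre livers, so their calls are not independent.

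Whether the response to MCD itself differed between the genotypes was tested as an interaction. All 7 estimates were negative, from log2 -0.50 for H2-Aa to -1.28 for Ciita, and none passed (adjusted p 0.147 to 0.452). The median was -0.69 against 0.03 over all genes, of which 3.29% were called higher and 5.54% lower. At an unadjusted p under 0.05 there were 3 of the 7, Ciita, H2-DMb1 and Cd74. Without Cre chow mouse 3 the interaction of H2-DMb1 passed (log2 -1.25, adjusted p = 0.0222).

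**Figure D2:**
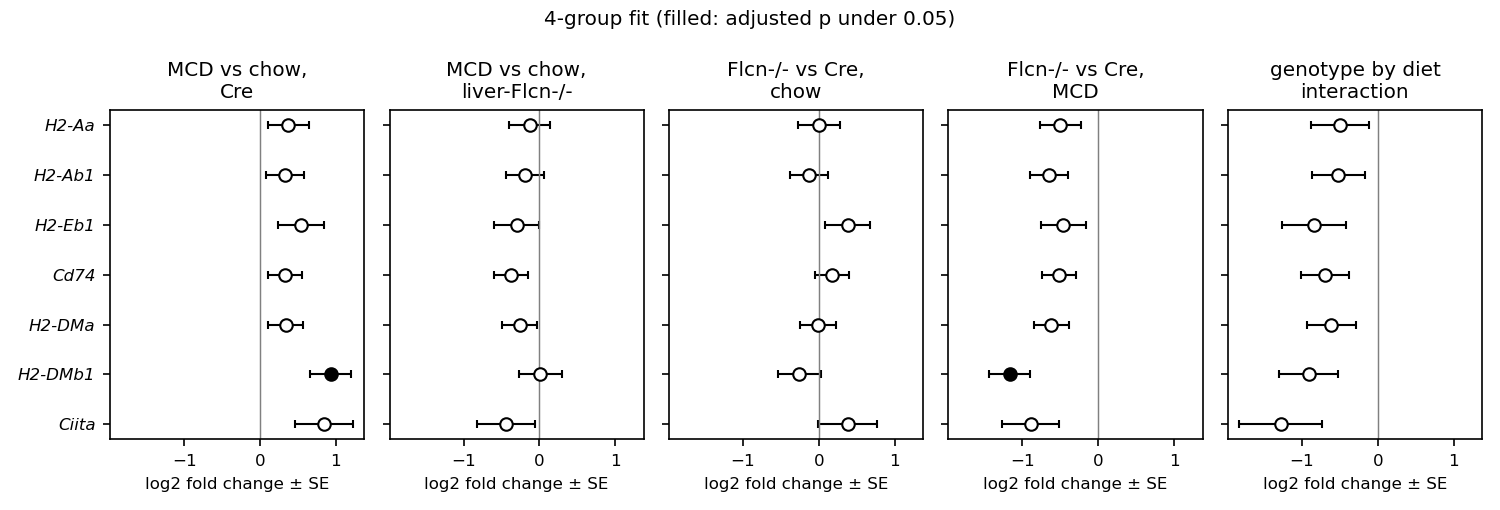
Log2 fold change with its standard error (horizontal axes) of each class II gene (rows) in the 5 comparisons of the fit of 4 groups, where a filled point passed at an adjusted p of 0.05. H2-DMb1 is filled for MCD against chow in Cre mice (0.93) and for the genotypes on MCD (-1.17), and the 7 interaction estimates all lie left of 0.

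The ratio of the 2 DM chains followed the same groups. Cre livers on MCD had 0.819 ± 0.0608 H2-DMb1 counts per H2-DMa count (SD, n = 5), and Cre chow, liver-Flcn-/- chow and liver-Flcn-/- MCD livers had 0.525 ± 0.124, 0.469 ± 0.125 and 0.548 ± 0.0786. The lowest Cre MCD liver, at 0.763, was above the highest of the other 17 livers, at 0.725. This ratio was chosen after the values were seen and was given no test. Counting on both genes carries a doubt: H2-DMa shares 3094 bases with Brd2 on the opposite strand, whose counts were 1192 to 2944 per library, and H2-DMb1 is a close paralog of its neighbour H2-DMb2, so reads could be split between them. H2-DMb2 had 0.507 ± 0.256 CPM in Cre and 1.62 ± 0.497 in liver-Flcn-/- mice on chow (log2 1.66 ± 0.47, adjusted p = 0.0316), and 1.01 ± 0.645 and 1.23 ± 0.779 on MCD (log2 0.30 ± 0.44, adjusted p = 0.704). With both genes added, the levels were 3.17 ± 1.52, 6.1 ± 1.28, 3.85 ± 0.665 and 3.48 ± 1.13 CPM in Cre chow, Cre MCD, liver-Flcn-/- chow and liver-Flcn-/- MCD livers. On MCD the genotypes then overlapped, with 4.05 CPM in the lowest Cre and 4.69 in the highest liver-Flcn-/- liver, so the full separation of H2-DMb1 was lost.

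**Figure D3:**
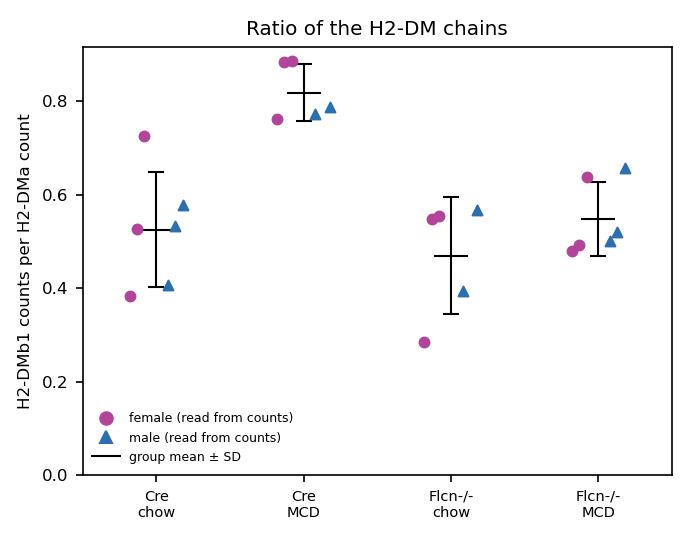
H2-DMb1 counts per H2-DMa count (vertical axis, linear from 0) in each liver by group, with symbols as in the plot of CPM by liver and bars for the mean ± SD. The 5 Cre livers on MCD, 0.763 and above, lie over all other livers.

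Part of the spread within groups ran with the sex of the mice. The labels do not give sex, and it was read from Xist, transcribed from the inactive X, and from 4 Y-linked genes. Xist had 5411 to 7573 counts in 12 livers, read as female, and 0 to 19 in 10 livers, read as male. The Y-linked genes had 1906 to 4321 counts in the males, and 0 to 675 in the females, with the most, 675, in Cre MCD mouse 1. Without that mouse the counts of calls below were 3 for males on chow, 7 for sex by diet, 7 for males on MCD and 6 for females on MCD. Each group held 3 females, and the males numbered 3 (Cre) and 2 (liver-Flcn-/-) on chow, and 2 and 3 on MCD. The 5 male chow libraries were the same 5 as the chow libraries with a uniquely mapped share under 75% in the study's library statistics. On chow, sex and this share therefore cannot be told apart. The MCD libraries were not checked against that limit. These fits, with 1 mean for each of the 8 cells of genotype, diet and sex, were chosen after the data had been seen.

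On chow, H2-Aa and H2-Eb1 were lower in males. H2-Aa had 25.6, 29.3, 32.1, 34.9 and 36.9 CPM in the 5 males and 45.0 to 77.7 with a median of 50.7 in the 6 females. H2-Eb1 had 18.8, 21.7, 29.1, 32.3 and 33.3 CPM in males and 36.7 to 62.3 in females. For both, as for Ciita, every male was below every female, which held for 3.57% of all genes. H2-Aa fell by 0.74 on the log2 scale (SE 0.20, adjusted p = 0.0194) and H2-Eb1 by 0.84 (SE 0.22, adjusted p = 0.0198), 2 of the 7 genes against 6.46% of all genes. The other 5 estimates were log2 -0.47 to -0.89 and did not pass. Within the genotypes the median of the 7 estimates was log2 -0.86 in Cre and -0.35 in liver-Flcn-/- mice, with 1 and 0 genes called. The share of all genes was not counted for these 2 tests. Averaged over the genotypes, the count was 4 with DESeq2 and 5 without the filter on low counts. It was 0 without Cre chow mouse 3 or without liver-Flcn-/- chow mouse 1 or 3, 1 without Cre chow mouse 6, 4 without liver-Flcn-/- MCD mouse 5 and 5 without Cre chow mouse 1.

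On MCD no class II gene passed between the sexes with the filter on low counts. All 7 estimates, male over female, were positive, from log2 0.46 for H2-Ab1 and Cd74 to 0.73 for Ciita, with adjusted p from 0.178 to 0.359. All 7 had an unadjusted p under 0.05, a threshold at which the share of all genes was not counted. At the adjusted threshold 0 of the 7 and 0.256% of all genes were called higher in males. DESeq2 and limma-voom called none either, but without the filter on low counts 5 were called, all but H2-DMa and H2-DMb1, and without liver-Flcn-/- MCD mouse 5 the count was 1. Cd74 had 115, 119, 132, 168 and 201 CPM in the 5 males on MCD and 67.2 to 167 in the 6 females.

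The test of the difference, sex by diet, passed for 6 of the 7 genes, against 4.88% of all genes. The estimates were log2 1.30 ± 0.28 for H2-Aa (adjusted p = 0.00861), 1.42 ± 0.31 for H2-Eb1 (0.0103), 1.02 ± 0.24 for H2-DMa (0.0162), 0.97 ± 0.25 for Cd74 (0.0231), 1.05 ± 0.28 for H2-Ab1 (0.0289) and 1.62 ± 0.44 for Ciita (0.0326). H2-DMb1 had log2 1.04 ± 0.32 (0.057). Within the genotypes the same test passed for 2 of the 7 genes in Cre mice and for 0 in liver-Flcn-/- mice. The median estimates there were log2 1.21 and 1.03, and the share of all genes was not counted for these 2 tests. Averaged over the genotypes, the count was 3 without liver-Flcn-/- chow mouse 1 and 2 without mouse 3, the 2 males of that cell. In males all 7 genes rose on MCD, by log2 0.51 for Cd74 to 1.12 for Ciita, while 26.0% of all genes rose, and without Cre MCD mouse 4 the count was 4. In females 4 fell, H2-Aa (log2 -0.45), H2-Eb1 (-0.49), Cd74 (-0.46) and H2-DMa (-0.45), while 28.2% of all genes fell. The count in females was 0 without Cre chow mouse 3, Cre MCD mouse 2 or liver-Flcn-/- MCD mouse 3, 1 without liver-Flcn-/- chow mouse 4 or liver-Flcn-/- MCD mouse 6, and 2 without Cre chow mouse 5, Cre MCD mouse 5 or liver-Flcn-/- chow mouse 5. The rise in males rests on chow livers that also had the low uniquely mapped share. Markers of immune cells passed the same test with the same sign, Flt3 (log2 2.35) and Itgax (2.02) of 8 dendritic cell markers, and Cd22 (1.52) of 8 B cell markers, as did Pecam1 (0.82) of 6 endothelial and Alb (0.72) of 6 hepatocyte markers, while none of the 7 monocyte, 8 Kupffer cell or 5 T and NK cell markers passed. In females 7 of 8 B cell, 3 of 5 T and NK cell and 4 of 6 endothelial markers fell on MCD. So did 4 of 8 Kupffer cell and 5 of 6 hepatocyte markers, against the 28.2% of all genes. Of 7 monocyte markers 5 rose and 1 fell, and of 8 dendritic cell markers 1 rose and 1 fell. The part of all these markers in the class II values was not tested.

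**Figure D4:**
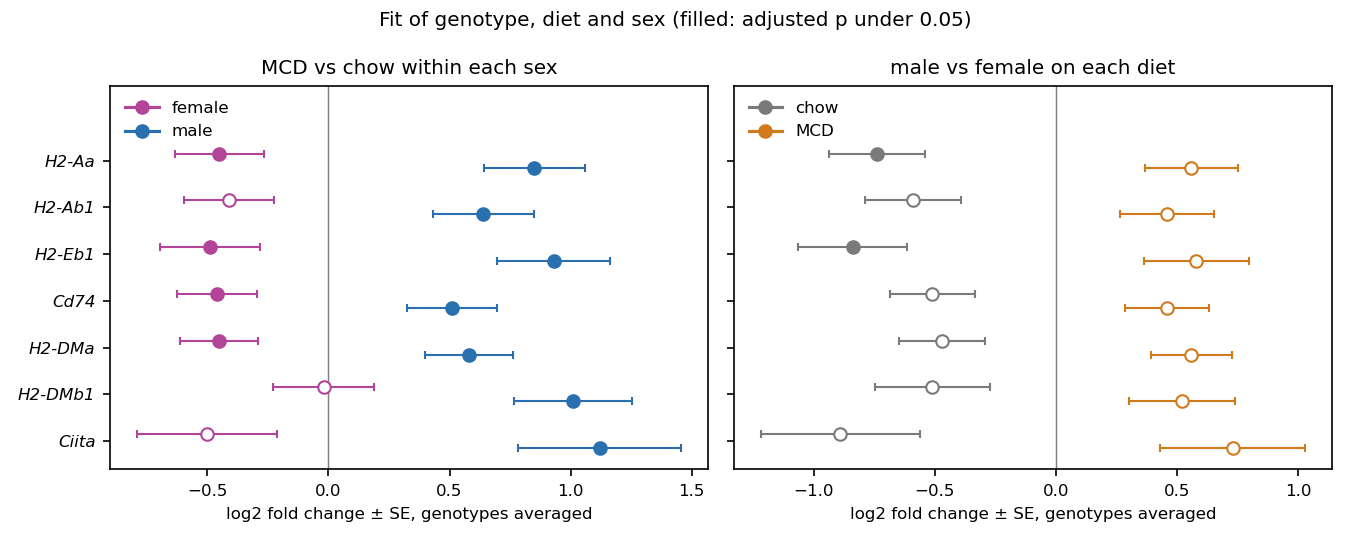
Log2 fold change with its standard error (horizontal axes) of each class II gene (rows), on the left for MCD against chow within females and within males, and on the right for males against females on each diet, averaged over the genotypes. Filled points passed at an adjusted p of 0.05, and all 7 male estimates on the left lie over 0 while the female ones lie at or under 0.

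With sex in the fit and averaged over, more class II genes passed in 3 of the 5 comparisons of genotype and diet. In Cre mice 5 of the 7 rose on MCD (30.6% of all genes did), H2-DMb1 by log2 1.02 ± 0.22 (adjusted p = 6.24e-04), Ciita by 0.93 ± 0.31 (0.0141), H2-Eb1 by 0.65 ± 0.22 (0.0155), H2-Aa by 0.48 ± 0.19 (0.0399) and H2-DMa by 0.41 ± 0.17 (0.0427). On MCD 6 of the 7 were lower in liver-Flcn-/- livers (12.0% of all genes were), H2-DMb1 by log2 -1.25 ± 0.22 (4.52e-04), H2-DMa by -0.69 ± 0.17 (0.0058), H2-Ab1 by -0.70 ± 0.19 (0.0138), Cd74 by -0.57 ± 0.17 (0.0242), Ciita by -0.90 ± 0.30 (0.0364) and H2-Aa by -0.56 ± 0.19 (0.0444), and H2-Eb1 was not called (log2 -0.51 ± 0.22, 0.105). The interaction passed for H2-DMb1 alone of the 7, at log2 -1.04 ± 0.32 (0.0395), where 8.23% of all genes were called lower. In liver-Flcn-/- mice on MCD, and between the genotypes on chow, none passed.

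Within sexes the cells held 2 or 3 mice. In male Cre mice all 7 genes rose on MCD (21.3% of all genes did), from log2 0.92 ± 0.25 for H2-DMa to 2.03 ± 0.46 for Ciita, whose values were 0.884, 1.01 and 2.06 CPM on chow and 5.34 and 5.43 on MCD. The 2 Cre males on MCD, mouse 3 and mouse 4, also had 1870 and 94.3 CPM of skeletal muscle genes, against 1.26 to 3.86 in the Cre males on chow, and mouse 3 had 84.7 CPM of B cell markers. All 7 genes still rose without mouse 3, and 5 did without mouse 4, where H2-Ab1 and H2-DMa did not pass. In female Cre mice none passed, with log2 -0.29 to 0.46. In female liver-Flcn-/- mice 3 fell on MCD, H2-DMa (log2 -0.80), H2-Eb1 (-0.80) and Cd74 (-0.71), where 19.3% of all genes fell, and in male liver-Flcn-/- mice none passed (0.02 to 0.45). On MCD 3 genes were lower in female liver-Flcn-/- than in female Cre livers, H2-DMb1 (log2 -1.52, adjusted p = 0.0029), H2-DMa (-0.91, 0.014) and H2-Ab1 (-0.84, 0.0417), with 6.91% of all genes lower, and in males Ciita was (-1.38, 0.0488), with 5.23% lower. In males the count was 0 without Cre MCD mouse 3 or mouse 4. H2-DMb1 in males stood at log2 -0.98 (adjusted p = 0.055). Whether the sexes differed in the genotype by diet interaction was tested, and none of the 7 passed (adjusted p 0.987 to 1.0). No unadjusted p was under 0.05 there in edgeR, the tool run for it.

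The genes around class II presentation were read from lists. Of 6 further class II genes listed 5 were in the table and 2 passed the filter, H2-DMb2 (above) and H2-Ob, a chain of the H2-O inhibitor of DM, at 0.886 ± 0.414 CPM over all livers. H2-Ea-ps, the inactive α chain of H2-E in this strain, had 0 counts in every library. Of 7 tested genes of the X and Y box proteins (Rfx5, Rfxap, Rfxank, Nfya, Nfyb, Nfyc and Creb1) 1 rose and 3 fell on MCD in Cre mice, where 29.3% of all genes rose and 28.2% fell. The numbers were the same in liver-Flcn-/- mice, where 22.5% of all genes rose and 22.5% fell, and none of the 7 passed the interaction. Nfyb fell by 1.49 on the log2 scale in Cre mice (adjusted p = 3.86e-08) and by 0.94 in liver-Flcn-/- mice (1.70e-05). Rfx5 differed by log2 -0.18 in both and was not called. The lowest interaction p in this list were those of Nfyb (log2 0.54, adjusted p = 0.0968) and Nfya (-0.28, 0.356).

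Interferon γ, the main inducer of Ciita, was close to 0, with 0 to 0.309 CPM of Ifng in the 22 livers. Of 10 genes of antigen and invariant chain processing, 6 rose and 3 fell on MCD in Cre mice, where 29.3% of all genes rose and 28.2% fell. In liver-Flcn-/- mice 3 rose and 1 fell, where 22.5% of all genes did either. Of the 10, 1 passed the test of the difference, a share near that of all genes (3.29% higher and 5.54% lower). It was Ctss, the cathepsin that cuts the invariant chain (interaction log2 -1.09 ± 0.31, adjusted p = 0.0303). It had 56.3 ± 10.4 CPM in Cre livers on chow and 139 ± 41.5 on MCD, and 69.6 ± 8.89 and 80.6 ± 26.9 in liver-Flcn-/- livers.

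Of 5 tested genes of costimulation, 3 rose on MCD in Cre mice, where 29.3% of all genes rose. In liver-Flcn-/- mice none of them rose and 1 fell, a share near the 22.5% of all genes that fell. Of the 5, Icosl, the ligand of ICOS on T cells, and Cd80, a ligand of CD28, passed the interaction (log2 -1.83 ± 0.38, adjusted p = 0.00513, and -1.39 ± 0.43, 0.0438), where 5.54% of all genes were called lower. Icosl had 0.759 ± 0.167 and 2.65 ± 0.578 CPM in Cre livers on chow and MCD, and 1.62 ± 0.618 and 1.57 ± 0.461 in liver-Flcn-/- livers. Cd4 and Lag3, which bind class II on T cells, both fell on MCD in liver-Flcn-/- mice (log2 -2.14 and -1.32, adjusted p = 0.00167 and 0.00736), and neither passed in Cre mice or the interaction. In the fit with sex, Ctss, Cd274 (PD-L1) and Nfyb passed the sex by diet test, at log2 0.76, 1.42 and 0.54.

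Markers of cells that can carry class II were read beside these values. Summed over 7 markers of monocytes and monocyte-derived macrophages, of which Lyz2 was the most abundant, the level was 76.4 ± 10.3 CPM in Cre chow, 215 ± 53.9 in Cre MCD, 105 ± 15.7 in liver-Flcn-/- chow and 119 ± 50.7 in liver-Flcn-/- MCD livers. Of these 7, 6 rose on MCD in Cre mice (29.3% of all genes did), 2 did so in liver-Flcn-/- mice (22.5%), and 5 passed the interaction with a negative sign, as 5.54% of all genes did: Cx3cr1 (log2 -3.75), Trem2 (-2.81), Ly6c2 (-1.87), Ccr2 (-1.42) and Lyz2 (-1.26). The dendritic cell markers (8 of 9 tested, Itgax the most abundant) summed to 9.52 ± 2.16, 27.2 ± 9.69, 11.9 ± 2.53 and 14.4 ± 3.61 CPM in the same order of groups, and 2 of the 8, Itgax and Siglech, passed the interaction (log2 -2.88 and -2.17), again against 5.54% of all genes. On MCD 5 of the 8 rose and 1, Zbtb46, fell in Cre mice (log2 -0.57, adjusted p = 0.00821), and in liver-Flcn-/- mice the numbers were 1 and 1. The class II genes themselves summed to 245 ± 93.7, 320 ± 86.8, 268 ± 42.7 and 220 ± 64.1 CPM. No defining marker of these lists was at 0 in all livers. The part of cell numbers in the class II values was not tested.

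The 8 Kupffer cell markers, with Cd5l on top, summed to 420 ± 78.0 and 393 ± 139 CPM in Cre and 475 ± 80.1 and 349 ± 99.0 CPM in liver-Flcn-/- livers on chow and MCD, and none passed the interaction, with Marco (log2 -2.20, adjusted p = 0.0583) and Adgre1 (-0.56, 0.169) the lowest in p. None of 5 T and NK cell or 6 endothelial markers passed it either. Of the bile duct and hepatocyte markers Spp1 (log2 -1.56) and Ttr (0.60) did. The B cell markers summed to 16.8 ± 6.11 and 24.8 ± 33.6 CPM in Cre and 54.6 ± 11.1 and 9.98 ± 2.75 in liver-Flcn-/- livers, mostly Ighm, which passed the interaction (log2 -4.18, adjusted p = 0.00785). The Cre MCD mean rests on mouse 3, with 84.7 CPM: without it the mean was 9.78 ± 3.47 CPM (n = 4) and the interaction of Ighm log2 -2.24 (adjusted p = 0.00999). Ptprc, which encodes the leukocyte antigen CD45, had 11.8 ± 3.0, 17.2 ± 5.14, 15.6 ± 2.7 and 11.5 ± 3.32 CPM in Cre chow, Cre MCD, liver-Flcn-/- chow and liver-Flcn-/- MCD livers. On chow it had 9.13 to 10.2 CPM in the 3 male and 11.5 to 16.9 in the 3 female Cre livers, whereas the liver-Flcn-/- livers overlapped, with 12.7 and 16.3 in the 2 males and a median of 17.1 in the 3 females, the lowest of which was below the higher male. The markers of hepatocytes, led by Alb, summed to 126000 ± 19600 and 85600 ± 13700 CPM in Cre livers on chow and MCD and to 104000 ± 20700 and 68800 ± 8020 in liver-Flcn-/- livers, as a liver sample holds. Skeletal muscle genes reached 1870 CPM in Cre MCD mouse 3 and 94.3 in mouse 4, the only Cre males on MCD, against 39.9 or less in the other MCD livers. Without mouse 3 the count of class II genes called was still 1 for the MCD response of Cre mice and 1 for the genotypes on MCD, and 5 for sex by diet.

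**Figure D5:**
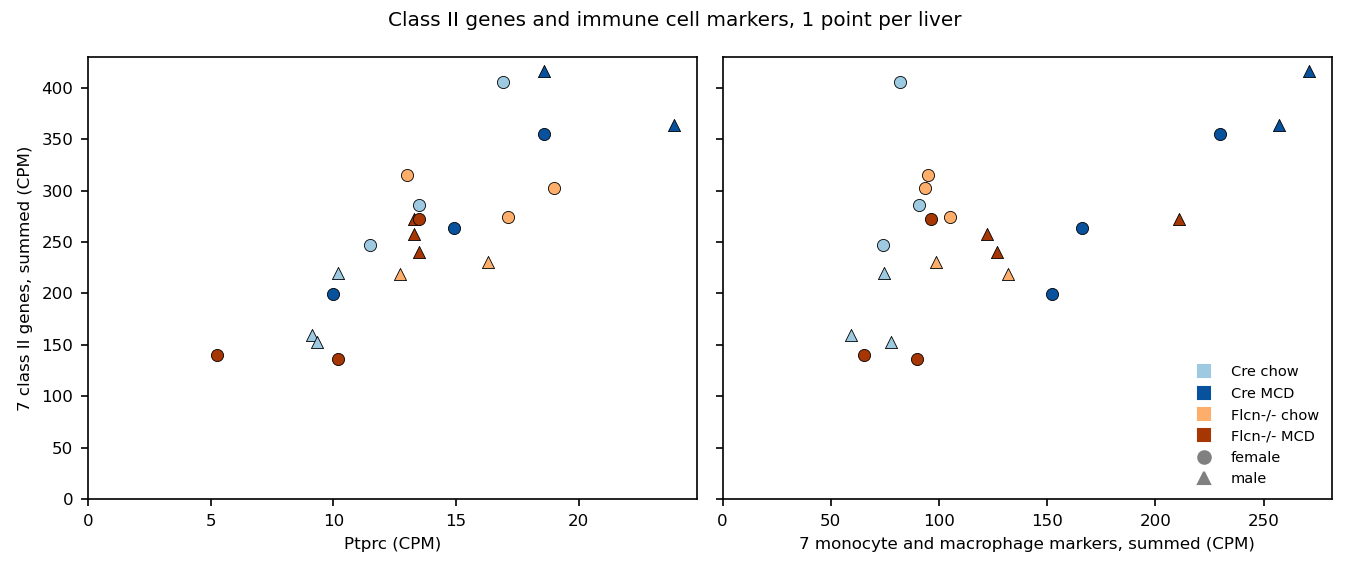
Summed CPM of the 7 class II genes (vertical axes) against the CPM of Ptprc (left) and the summed CPM of 7 monocyte and macrophage markers (right), 1 point per liver, with colour for the group and shape for the sex read from the counts. The 2 liver-Flcn-/- MCD females with the lowest class II sums had 5.24 and 10.2 CPM of Ptprc, and Cre chow mouse 3, a female, had a high class II sum at a low monocyte and macrophage sum.

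Pearson's r between pairs of the 7 class II genes, on log2 CPM over 22 livers, was 0.577 to 0.952 with a median of 0.851 over 21 pairs. These livers share group and sex differences, and r is given as a description. A score, the mean of the 7 genes after each was centred and scaled, was highest in Cre MCD mouse 4 (1.66), Cre chow mouse 3 (1.41), Cre MCD mouse 3 (1.23) and Cre MCD mouse 1 (1.22), and lowest in liver-Flcn-/- MCD mouse 3 (-1.65) and mouse 6 (-1.59) and in the male Cre chow mice 6 (-1.31) and 5 (-1.28). The 10 genes most like this score over the 22 livers were Il10ra (r = 0.908), a chain of the interleukin-10 receptor, Dock10 (0.895), Procr (0.893), Msn (0.88), Pik3r6 (0.872), Tbxas1 (0.864), Tmsb4x (0.856), Vav1 (0.855), Cd180 (0.851) and Ptprc (0.848).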

How the data were processed

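Total RNA was isolated from frozen liver, and mRNA libraries were sequenced as single-end reads. The authors trimmed the reads with Trimmomatic, aligned them to GRCm38 with STAR and counted them with HTSeq. They deposited raw counts, whole numbers of reads per gene without normalization. The annotation release, the strand setting of HTSeq and any collapsing of reads by molecular identifiers are not given in the sources used here, and without strand, reads from a gene and an antisense partner cannot be told apart. All 22 columns matched a sample label and 0 did not, and no pair of libraries was identical (0 pairs). The labels give 1 mouse per library but not the litters or days, so p-values measure the spread between these mice.

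From the counts, edgeR 4.0.16 in R 4.3.3 was run on 14062 genes, those whose counts averaged 10 or more, with TMM normalization, 1 fit of the 4 groups, two-sided quasi-likelihood tests and Benjamini-Hochberg adjustment over all genes tested, with a threshold of 0.05. The fits with sex used 8 cells in place of 4 groups and were added after the data had been seen. The correlations and exact permutation tests used log2 CPM with a prior count of 2. Alternatives were limma-voom (limma 3.58.1), DESeq2 1.42.0, no filter or another filter on low counts, scaling by RLE, fits of the groups compared alone, a sex term, the replicate number as a block, leaving out the 5 chow libraries with a uniquely mapped share under 75%, and leaving out each mouse. The genes named are the 7 members, Flcn and, from each list, the genes that passed the interaction or else the 2 with the lowest interaction p. Brd2, the sums over lists and further list genes were named after their values were seen. Results that this rule would also name are in part not reported here. The 10 genes most like the members were those with the highest Pearson r. The members and lists were chosen with earlier results of these data known. Positions are from GENCODE M21 and promoter sequences from RefSeq, which matched 4 of the 6 members searched. Reads of near-identical copies are uncertain for H2-DMb1, and of overlapping genes for H2-DMa (Brd2) and Ciita (Dexi).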

Additional observations from a re-analysis of the deposited data

Results flagged for a closer look

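H2-DMb1 had 5.37 CPM in Cre chow mouse 3, far above the other 5 Cre livers on chow, the next of which had 2.91. This was the 1 outlying value in 28 checks of a gene in a group, where chance gives about 1 in 20.

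The response to MCD differed between the sexes, by a test of the difference itself, for 6 of the 7 genes. The difference between males and females, averaged over the genotypes, was log2 1.30 for H2-Aa, 1.05 for H2-Ab1, 1.42 for H2-Eb1, 1.02 for H2-DMa, 0.97 for Cd74 and 1.62 for Ciita. Sex was read from the counts, and the 5 chow males were the 5 libraries with a low uniquely mapped share.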

How the results depend on the processing

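Each value here is a log2 fold change or a count of the 7 class II genes called. Of 2128 alternative values of single genes 1921 kept their direction and their side of the threshold, 74 no longer passed, 73 newly passed and 60 changed sign, none of these 60 from a main value that had passed. Ciita had the fewest reads of the 7 genes, 11 to 114 per library, which limits its precision. The fits within sexes rest on 2 or 3 mice a cell, and where a mouse left out leaves 1, that mouse is assumed to vary like the others. The effect of the low uniquely mapped share on the sexes on chow could not be fitted, since those libraries are all the males there.

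Counts of risers on MCD in Cre mice were 2 with DESeq2, 0 without the chow libraries of low uniquely mapped share, 5 with sex in the fit, 0 in females and 7 in males, and 1 to 6 with a mouse left out. Without those chow libraries H2-DMb1 stood at 0.57 (adjusted p = 0.151). Counts of genes that fell on MCD in liver-Flcn-/- mice were 3 in females. Counts lower in liver-Flcn-/- livers on MCD were 3 with DESeq2, 6 with sex in the fit, 3 in females, and 1 to 4 with a mouse left out. For the interaction of genotype and diet the count was 1 with sex in the fit and 0 to 1 with a mouse left out. Counts lower in males on chow were 4 with DESeq2 and 5 without a filter on low counts, and 0 to 5 with a mouse left out. Counts higher in males on MCD were 5 without the filter, and 0 to 1 with a mouse left out. With a mouse left out, sex by diet had 2 to 7 calls, the MCD response had 4 to 7 in males and 0 to 6 in females. The cause of these shifts was not tested.

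Same-numbered mice did not deviate together (mean r 0.00613, from -0.551 to 0.47 over 31 pairs), and the numbers name different mice. With the replicate block, the calls were 1 for the MCD response of Cre mice, 1 for the genotypes on MCD, 3 lower in males on chow and 4 for sex by diet, where H2-Eb1, Cd74 and Ciita no longer passed and H2-DMb1 passed.

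Signs changed as follows, none past the threshold in the main fit. For the MCD response of Cre mice, females gave -0.29 (H2-Aa), -0.16 (H2-Ab1), -0.19 (H2-Eb1), -0.09 (H2-DMa), -0.21 (Cd74) and -0.17 (Ciita), and leaving out the chow libraries of low share gave -0.03 for H2-Aa and -0.03 for H2-Ab1. For that of liver-Flcn-/- mice, males gave 0.45 (H2-Aa), 0.30 (H2-Ab1), 0.37 (H2-Eb1), 0.24 (H2-DMa), 0.02 (Cd74) and 0.21 (Ciita), and H2-DMb1 turned to -0.04 with limma-voom, -0.05 without those chow libraries, -0.03 with sex in the fit, -0.50 in females and -0.11 to 0.13 with a mouse left out. Between the genotypes on chow, H2-Aa gave 0.07 with limma-voom, 0.00 with DESeq2 and RLE factors, 0.02 without the filter and with only these groups, 0.21 in males and -0.12 to 0.24 with a mouse left out. H2-DMa gave 0.02 with limma-voom, without the filter and with only these groups, 0.00 with sex in the fit, 0.20 in males and -0.12 to 0.14 with a mouse left out. H2-Ab1 gave 0.12 and H2-DMb1 0.14 in males, with -0.23 to 0.10 and -0.36 to 0.07 when a mouse was left out. Cd74 gave -0.04 in females and without the chow libraries of low share. In the MCD response of females, H2-DMb1 gave 0.02 with limma-voom and -0.16 to 0.22 with a mouse left out.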

Other observations

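H2-Eb1 was counted more often relative to H2-Aa in liver-Flcn-/- livers on chow. The ratio of their counts was 0.736 to 0.834 in the 6 Cre livers on chow and 0.876 to 1.23 in the 5 liver-Flcn-/- livers, so these groups did not overlap, while on MCD the ranges were 0.832 to 0.929 and 0.745 to 1.17. This ratio was picked after the values were seen, among 4 ratios, and has no test.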
